A study of Mus musculus with 2 samples.

Results

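The liver neutrophils described here are the cells that the study's metadata name Neu, 71 of 11929 annotated cells, of which 54 came from TG mice and only 17 from WT mice. They formed 1 of 30 clusters and were set beside the 462 cells named Mono, 204 TG and 258 WT, which formed another. TG mice (dnTGFβRII) express a dominant negative TGF-β receptor II under the CD4 promoter, which drives it in T cells, and they are a mouse model of primary biliary cholangitis. WT mice were the wild type controls. Both were C57BL/6 mice, 10 weeks old by the labels, while the methods give a slightly younger age, and the labels name the cells CD45+. Liver mononuclear cells were separated from hepatocytes on Percoll, red cells were lysed, and RNA and 49 surface antibodies were read from each cell as molecules counted once (UMIs) on the BD Rhapsody system. The TG cells shared a capture library with cells of IFN-γ ARE-Del-/- mice and the WT cells shared the other library with cells of P40-/-IL-2Ra-/- mice, and the metadata give a genotype name to TG and WT cells only. With 1 library for each genotype, genotype and library cannot be told apart, cells are not replicates, and no test was made. Intervals cover counting error at the 95% level only.

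Neutrophils are short-lived phagocytes made in bone marrow. Their granule proteins are made in waves as the cell matures: those of primary granules in the promyelocyte, those of secondary granules in the myelocyte, and those of tertiary granules and secretory vesicles later, whereas receptors for G-CSF and CXC chemokines and cytokine genes such as Il1b are carried mainly by mature cells. The cells leave the marrow through the CXCR2 and CXCR4 axes and are recruited to inflamed liver, where they release oxidants, proteases and IL-1.

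The cells named Neu held their markers. S100a8 and S100a9, the subunits of calprotectin, were found in 54 of 54 TG and 17 of 17 WT cells, and Ly6g, a surface protein that defines mouse neutrophils, in 50 of 54 and 15 of 17. The highest, median and lowest S100a8 counts in a cell were 856, 373 and 97 UMIs in TG and 496, 195 and 50 in WT. B cells named maturate b, which should lack these genes, held S100a8 at 93.4 CPM (UMIs per 1000000 of the summed profile) in TG and 50.3 in WT, against 62027 CPM (61189.6 to 62874) in TG Neu cells and 41597 CPM (40291 to 42936) in WT Neu cells. Lymphocyte markers were low in Neu cells. Summed over their lists, T cell genes gave 261 CPM in TG and 629.8 in WT, B cell genes 914 and 597, and NK cell genes 237 and 456. Most of the lineage UMIs of WT lay in 4 cells, with 8 to 61 each, while the other 13 WT cells held 0 to 4. The classical monocyte list, in contrast, summed to 20588 CPM in TG and 18849.7 in WT Neu cells, above the 5065 and 9578 of the cells named Macro and the 2610.4 and 2029 of Mono cells. Most of it came from Lyz2, Chil3 and Ly6c2, genes that neutrophils also express and whose values stand below, and Chil3 is in the secondary granule list too. Of 7 basophil genes 1 had a single UMI in TG Neu cells and none had one in WT, and the 6 hepatocyte genes had none in either. No basophil, eosinophil, conventional dendritic cell, platelet, erythroid, hepatocyte or endothelial gene of the lists reached the count minimum used below.

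Several defining genes of monocytes were low or absent in the cells named Mono. Ccr2, the receptor that brings classical monocytes out of the marrow, stood at 21.7 CPM in TG and 40.1 in WT Mono cells, against 558 and 564 in the cells named Macro. F13a1 and Vcan had no UMI in any Mono cell, so that they lie under 5.01 CPM (TG) or 5.73 CPM (WT), and Ms4a6c stood at 15.0 and 15.3 CPM against 685 and 469 in Macro cells. Csf1r, the receptor for M-CSF, was present in Mono cells at a lower level than in Macro cells, 224 and 214 CPM against 628 and 397, and above the 19.0 and 8.62 of B cells. The nonclassical monocyte list summed to 1606 and 1813 CPM in Mono and 3624 and 2149.7 in Macro cells, mostly from Itgal and Nr4a1 in Mono cells. The macrophage and Kupffer cell list summed to 634 and 554 CPM in Mono and 114 and 1416 in Macro cells, and most of the sum in Mono cells was Slc40a1, an iron exporter. Mono cells also held neutrophil genes. Csf3r, the G-CSF receptor, was found in 97.5% of TG and 98.1% of WT Mono cells, Cxcr2 in 98.0% and 97.7%, and S100a9 in 99.0% and 98.8%, while B cells held the 3 genes in 1.40%, 0.936% and 37.6% of TG cells. Before the datasets were joined, 69 of the 71 Neu and 458 of the 462 Mono cells lay in the same cluster. That clustering also used a coarser setting, so effects of joining and of setting cannot be told apart there. The comparisons below are therefore between a cluster named Neu and one named Mono. Ccr2, F13a1, Vcan and Ms4a6c go against the name Mono, though Csf1r was present. Nearly all Mono cells held Csf3r, Cxcr2 and S100a9, so the comparisons cannot be read as neutrophils against monocytes. Both clusters are called here by the names in the metadata. Since the clusters were drawn from the same genes, differences between them are descriptions.

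Neu cells made up 1.16% (0.874 to 1.51) of the 4647 TG cells and 0.233% (0.136 to 0.374) of the 7282 WT cells, a difference of 0.929 percentage points (0.624 to 1.29). Mono cells made up 4.39% (3.82 to 5.02) and 3.54% (3.13 to 3.99), a difference of 0.847 points (0.135 to 1.59). Of the Neu and Mono cells of a genotype, Neu cells were 20.9% (16.1 to 26.4) in TG and 6.18% (3.64 to 9.71) in WT. The lowest, median and highest number of T, B and NK lineage UMIs was 1, 8 and 22 in a TG Neu cell and 0, 2 and 61 in a WT Neu cell. Without Neu cells with 2 or more of them, 2 TG and 6 WT cells were left and the difference was -0.0390 points (-0.141 to 0.0844), an interval that includes 0. Mono cells also held more such UMIs in TG than in WT, with medians of 5 and 1, where genotype and library cannot be told apart. The limit removes nearly all TG Neu cells, so the value gives no order of the genotypes. The difference can come from more Neu cells, fewer other cells, cell loss in isolation and capture, genotype tags not read or the authors' filtering. These data cannot tell such sources apart. Cells with no genotype name and a share of S100a8 and S100a9 like that of named Neu cells numbered 8 in the TG library and 253 in the WT library. Their genotype was not tested.

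**Figure D1:**
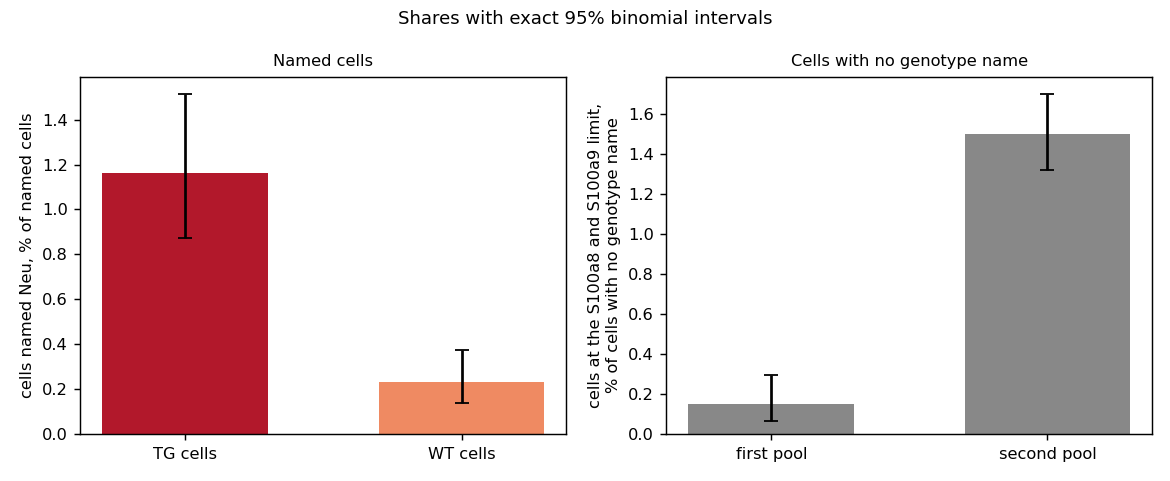
Left, cells named Neu as a percentage of the named TG and WT cells (1.16% and 0.233%). Right, cells with no genotype name in each library whose share of S100a8 and S100a9 UMIs reached the lower quartile of the named Neu cells of that library (0.149% and 1.50%). Bars start at 0 and error bars are exact 95% binomial intervals for counting error. The order of the libraries is opposite in the 2 panels.

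Neu cells were deeper than Mono cells. The lowest, median and highest totals were 2036, 6046 and 13937 UMIs in TG Neu cells and 1192, 4638 and 13126 in WT Neu cells, against 1471, 2618 and 12843 in TG Mono cells and 1083, 1772 and 8103 in WT Mono cells. The median was 2.31 times that of Mono in TG and 2.62 times in WT, and a Neu cell had a median of 1778 genes in TG and 1789 in WT, against 1048 and 821. The summed profiles held 337141 UMIs for TG Neu and 92097 for WT Neu cells, so that a gene with no UMI can still lie at up to 8.90 CPM in the first and 32.6 in the second. The median share of mitochondrial UMIs was 1.10% in TG and 1.09% in WT Neu cells and 0.706% and 0.744% in Mono cells. Few genes filled the Neu profile. S100a8 and S100a9 took 12.9% of all UMIs in TG and 10.5% in WT, and the 10 leading genes 28.8% and 24.5%, whereas S100a8 and S100a9 took 4.89% and 2.90% in Mono cells.

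**Figure D2:**
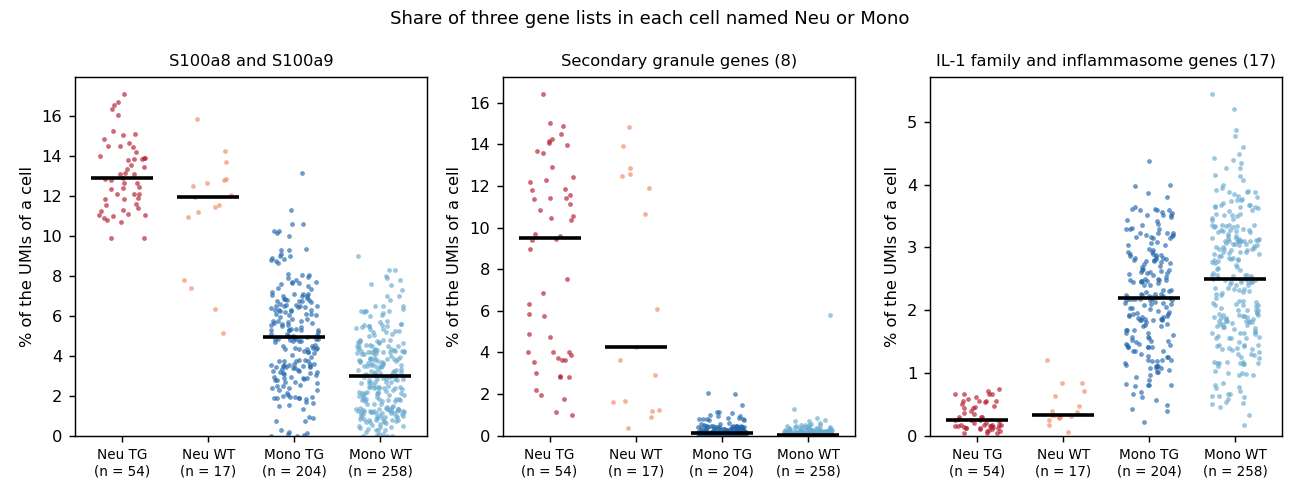
Each point is a cell, with the share of its UMIs on the vertical axis, for S100a8 with S100a9, the 8 secondary granule genes and the 17 genes of the IL-1 family and inflammasome list. Black lines are medians. Secondary granule genes had a median of 9.52% in TG and 4.27% in WT Neu cells against 0.119% and 0.0571% in Mono cells. Without the 4 WT cells with the most lymphocyte UMIs, whose median was 1.26%, the WT Neu median was 10.7%. The IL-1 list ran the other way, at 0.246% and 0.336% against 2.19% and 2.50%.

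Among genes with at least 20 UMIs over both profiles, 580 of 4625 in TG (12.5%) were at least 2-fold higher in Neu than in Mono cells and 965 (20.9%) at least 2-fold lower. In WT they were 539 of 3771 (14.3%) and 901 (23.9%). These counts come from ratios with 0.5 UMIs added to each side. Of the 901, 132 had no UMI in WT Neu cells, and for 86 of these a floor of 3 UMIs allows a difference of under 2-fold, whereas none of the 18 such genes in TG was under it. Of 3616 genes that passed in both genotypes, 232 were at least 2-fold higher in both, 499 lower in both, and 18 higher in one and lower in the other. TMM scaling (edgeR) left the split of the called genes nearly the same in TG, where 38.6% in place of 37.5% were higher, but moved it in WT from 37.4% to 22.8%. The median log2 ratio over all genes tested was -0.16 in TG and -0.12 in WT, and list medians below are read against these. No count of a role list called in TG moved by more than 1 gene under TMM scaling and none in WT by more than 3, but in WT it put 2 of 4 MHC class II genes, 1 of 7 oxidase genes and 1 of 8 S100 and alarmin genes at least 2-fold lower where the totals gave none.

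Secondary granule genes had the highest median ratio of the 17 lists of genes by role. All 8 of the list (Ltf, Camp, Ngp, Lcn2, Chil3, Cd177, Olfm4 and Orm1) were at least 2-fold higher in TG Neu than in TG Mono cells, as were the 6 that passed the count minimum in WT, with a median log2 ratio of 6.71 in TG and 7.73 in WT. Lactoferrin (Ltf), which binds iron, stood at 12811 CPM (12431 to 13199) in TG and 7384 CPM (6839 to 7960.0) in WT Neu cells, and at 11.7 and 9.55 in Mono cells. The Mono level was near that of B cells, 6.25 and 8.90 CPM, so the log2 ratios of 10.10 (9.05 to 11.41) and 9.59 (8.36 to 11.22) were taken against a level close to background. Cathelicidin (Camp), an antimicrobial peptide, stood at 15670.0 CPM in TG Neu cells and 13.4 in TG Mono cells, and 11933 and 55.4 in the WT cells. Neutrophilic granule protein (Ngp) stood at 40016 CPM in TG Neu cells and 239 in TG Mono cells, and 38025 and 153 in the WT cells. Ngp was the only one of these 3 with a UMI in every Neu cell, from 4 to 732 UMIs in TG and from 2 to 587 in WT, while Ltf was found in 49 of 54 TG and 11 of 17 WT cells and Camp in 48 and 14. Lipocalin 2 (Lcn2), which binds bacterial siderophores, stood at 19286 CPM in TG Neu cells and 2005 in TG Mono cells, and 13149 and 1012 in the WT cells. Unlike Ltf and Camp it was also found in 73.0% of TG and 52.7% of WT Mono cells, against 3.09% and 3.41% of B cells. The chitinase-like protein Chil3 stood at 4259 CPM in TG Neu cells and 10.0 in TG Mono cells, and 5853 and 26.7 in the WT cells, and Cd177, a neutrophil surface protein, at 2334 CPM in TG Neu cells and 105 in TG Mono cells, and 1694 and 49.7 in the WT cells.

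Ltf, Camp and Ngp lie on chromosome 9 of GRCm38, Camp at 109847379 to 109849617 on the minus strand, Ngp at 110419747 to 110423012 and Ltf at 111019271 to 111042767 on the plus strand. The sequences before their starts are shown because these genes were higher together in both libraries. They are the bases of the 250 before the RefSeq start (GRCm38.p6) that also lie before the gene as GENCODE M21 annotates it, 5′ to 3′ on the strand of the gene, and capitals mark matches to TTGCNNAA on either strand, letters of the kind C/EBP factors bind. Matches on the 2 strands can overlap. The stretch of Camp held none.
Ltf, chr9:111019042-111019270: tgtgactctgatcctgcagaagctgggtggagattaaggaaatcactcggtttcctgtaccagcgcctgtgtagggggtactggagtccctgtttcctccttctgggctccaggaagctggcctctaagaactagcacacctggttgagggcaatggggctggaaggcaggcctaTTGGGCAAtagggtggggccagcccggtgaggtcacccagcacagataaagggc
Ngp, chr9:110419558-110419746: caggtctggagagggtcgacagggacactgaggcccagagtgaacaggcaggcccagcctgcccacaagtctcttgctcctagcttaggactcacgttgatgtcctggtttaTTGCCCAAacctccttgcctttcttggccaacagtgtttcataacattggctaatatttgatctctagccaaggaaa
Camp, chr9:109849618-109849706: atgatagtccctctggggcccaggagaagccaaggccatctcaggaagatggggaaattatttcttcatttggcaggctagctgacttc
Over the whole 250 bases, 3 of the 7 listed genes with a promoter in the table (Ltf, Ngp and Lcn2) held a match, or 42.9%, against 2930 of 27025 genes (10.8%). For the mature neutrophil list it was 5 of 30 (16.7%), for the IL-1 list 2 of 15 (13.3%) and for the interferon list 3 of 29 (10.3%). Other letters stood above their share of all genes as well, except GAGGAAG in the interferon list, where it stood below that share. GAGGAAG, of the kind PU.1 binds, on either strand, was found in 2 of 7 secondary granule genes (28.6%), 9 of 30 mature neutrophil genes (30.0%), 4 of 15 IL-1 genes (26.7%) and 2 of 29 interferon genes (6.90%), against 3244 of 27025 genes. TATAAA, the TATA box, on the strand of the gene, was found in 14.3%, 13.3%, 33.3% and 13.8% of them, against 8.94%. These are counts of letters in a window, with 7 genes in the smallest list.

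Primary granule genes were nearly absent. Ctsg (cathepsin G) had no UMI in any Neu cell and Mpo (myeloperoxidase) had 2 in TG and none in WT. Elane (neutrophil elastase) had none in TG and 20 UMIs in WT, all in a single cell, and the 20 WT UMIs of Prtn3 (proteinase 3) lay in that one cell too, while in TG the 12 UMIs of Prtn3 lay in 5 cells. Genes of tertiary granules and secretory vesicles differed less between Neu and Mono cells than those of secondary granules. Of 9 that passed in each genotype, 5 in TG and 4 in WT were at least 2-fold higher and 1 lower, with a median log2 ratio of 1.03 in TG and 0.64 in WT. The collagenase Mmp8 stood at 4372 CPM in TG Neu cells and 1108 in TG Mono cells, and 3105 and 531 in the WT cells. The gelatinase Mmp9, by contrast, was found at 3542 CPM in TG Neu cells and 1738 in TG Mono cells, and 2779.7 and 2004 in the WT cells. The formyl peptide receptor Fpr2 stood at 1922 CPM in TG Neu cells and 738 in TG Mono cells, and 1184 and 512 in the WT cells, and Slpi, an inhibitor of elastase, at 1136 CPM in TG Neu cells and 2420.2 in TG Mono cells, and 804 and 2283 in the WT cells, the one gene of the list that was at least 2-fold lower. In TG, Slpi turned to 0.44 on the log2 scale without cells with 2 or more lymphocyte UMIs, which left 2 TG Neu cells.

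The S100 genes split. S100a8 was higher in Neu than in Mono cells by a log2 ratio of 1.54 (1.51 to 1.57) in TG and 1.95 (1.89 to 2.01) in WT and S100a9 by 1.29 (1.27 to 1.32) and 1.80 (1.76 to 1.85), whereas S100a6 stood at 4028 CPM in TG Neu cells and 4949 in TG Mono cells, and 1737 and 2899.8 in the WT cells, and S100a11 at 5119.5 CPM in TG Neu cells and 6749.8 in TG Mono cells, and 3247 and 4995 in the WT cells, both within 2-fold. Annexin A1 (Anxa1), which damps neutrophil recruitment, stood at 4876 CPM in TG Neu cells and 988 in TG Mono cells, and 4018 and 776 in the WT cells. Of 9 list genes tested in TG, 4 were at least 2-fold higher and 2 lower, and of 8 in WT, 4 and 0.

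**Figure D3:**
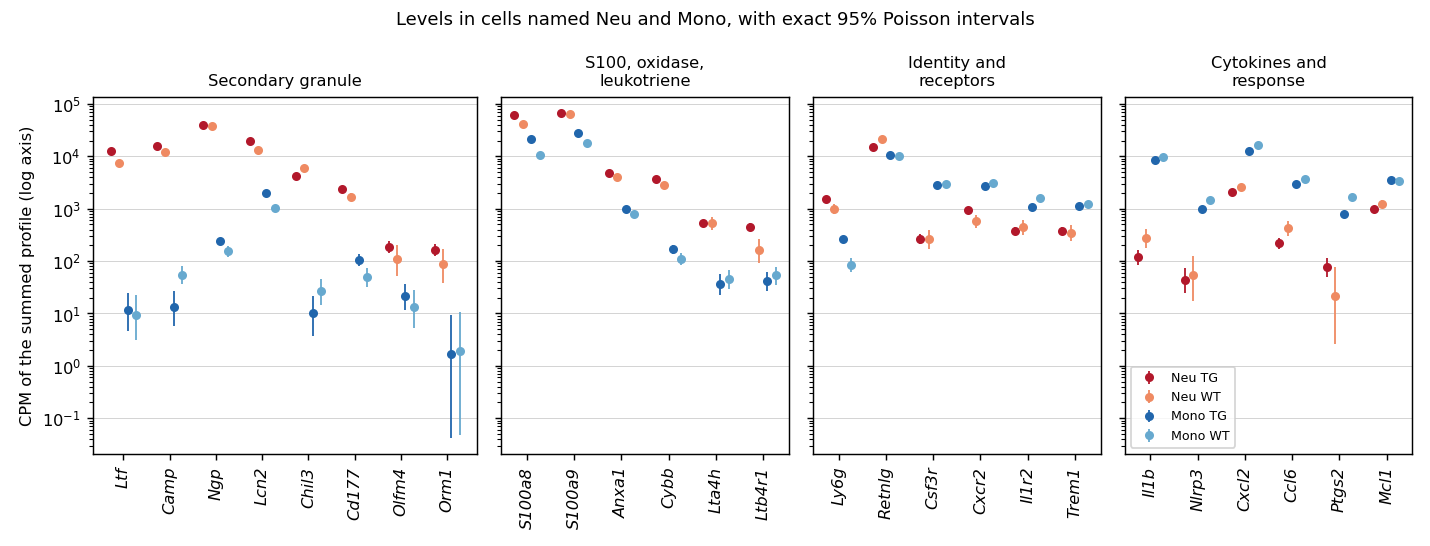
Level of 26 genes in the summed profiles of Neu and Mono cells, in CPM on a log axis, with exact 95% Poisson intervals for counting error. The 8 secondary granule genes on the left lie higher in Neu cells of both libraries, and the 6 cytokine and response genes on the right lie lower.

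Some genes of the oxidant burst and of leukotriene synthesis were higher in Neu than in Mono cells. Cybb, the catalytic subunit of the NADPH oxidase, stood at 3684 CPM (3482 to 3895) in TG and 2801 CPM (2470.0 to 3165) in WT Neu cells against 167 and 109 in Mono cells, a 22.1-fold and 25.7-fold difference. Its partners Ncf1 and Cyba differed less. Ncf1 stood at 1332 CPM in TG Neu cells and 357 in TG Mono cells, and 1292 and 672 in the WT cells, and Cyba at 1213 CPM in TG Neu cells and 598 in TG Mono cells, and 814 and 426 in the WT cells. Of the 7 oxidase genes, 3 in TG and 1 in WT were at least 2-fold higher and none lower. The WT share is that of all genes tested, 14.3%, and under TMM scaling 1 of the 7 was lower in WT. Lta4h, the enzyme that makes leukotriene B4, stood at 534 CPM in TG Neu cells and 36.7 in TG Mono cells, and 532 and 45.8 in the WT cells, and Ltb4r1, the receptor for it, at 448 CPM in TG Neu cells and 41.7 in TG Mono cells, and 163 and 53.5 in the WT cells. Ptgs2, the inducible cyclooxygenase of prostaglandin synthesis, ran the other way, at 77.1 CPM in TG Neu cells and 778 in TG Mono cells, and 21.7 and 1691 in the WT cells, as did Ptafr, the receptor for platelet-activating factor, at 80.1 CPM in TG Neu cells and 302 in TG Mono cells, and 10.9 and 453 in the WT cells.

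Receptors and surface genes of mature neutrophils were mostly lower in Neu than in Mono cells. Of 36 genes in the mature neutrophil list, 34 passed in TG and 32 in WT. Of these, 22 in TG and 20 in WT were at least 2-fold lower and 4 and 5 at least 2-fold higher, with a median log2 ratio of -1.35 in TG and -1.50 in WT. Csf3r stood at 261 CPM (209 to 322) in TG Neu against 2857 CPM (2724 to 2996) in TG Mono cells, and at 261 CPM (167 to 388) against 2955 CPM (2809.8 to 3106) in WT. Cxcr2 stood at 964 CPM in TG Neu cells and 2711 in TG Mono cells, and 575 and 3089 in the WT cells. Il1r2, a decoy receptor for IL-1, stood at 383 CPM in TG Neu cells and 1077 in TG Mono cells, and 445 and 1591 in the WT cells, and Trem1, which amplifies inflammatory signals, at 377 CPM in TG Neu cells and 1103 in TG Mono cells, and 347 and 1221 in the WT cells. The exceptions were Ly6g, at 1557 CPM in TG Neu cells and 262 in TG Mono cells, and 988 and 86.0 in the WT cells, Ifitm6, at 6324 CPM in TG Neu cells and 537 in TG Mono cells, and 3713 and 128 in the WT cells, Wfdc21, at 6261 CPM in TG Neu cells and 1347 in TG Mono cells, and 4995 and 472 in the WT cells, and Pglyrp1, which binds bacterial peptidoglycan, at 4758 CPM in TG Neu cells and 1799 in TG Mono cells, and 3865 and 1473 in the WT cells. Retnlg, a resistin-like secreted protein, passed 2-fold in WT only, at 15326 CPM in TG Neu cells and 10438 in TG Mono cells, and 21401 and 10237 in the WT cells. With each cell thinned to 500 UMIs, Ly6g was found in 57.4% of TG Neu and 10.3% of TG Mono cells and in 47.1% and 5.81% of the WT cells, while Cxcr2 was found in 37.0% and 75.5% in TG and 23.5% and 82.9% in WT. The order was thus the same at equal depth. It was not the same in TG without cells with 2 or more lymphocyte UMIs, which left 2 TG Neu cells. There Cxcr2 turned to 0.31 on the log2 scale, and 6 of 26 genes of the list were at least 2-fold lower and 6 higher.

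Cytokines, chemokines and their receptors were mostly lower in Neu than in Mono cells. Il1b stood at 119 CPM (84.8 to 162) in TG Neu against 8461 CPM (8229 to 8697) in TG Mono cells, a 71.3-fold difference, and at 271 CPM (176 to 401) against 9599 CPM (9336 to 9868) in WT. Of its 25 UMIs in WT Neu cells, 18 lay in 1 cell that Scrublet called a doublet. The 4 WT cells with the most lymphocyte UMIs, described below, held 24 of them, in only 2 of the 4, and the other 13 cells held 1, or 16.1 CPM (0.407 to 89.6). Il1b was found in 18 of 54 TG and 3 of 17 WT Neu cells and in 96.6% and 98.1% of Mono cells. Nlrp3, the sensor of the inflammasome that cleaves pro-IL-1β, stood at 44.5 CPM in TG Neu cells and 969.7 in TG Mono cells, and 54.3 and 1471 in the WT cells. Of the IL-1 list, 12 of 15 genes tested in TG and 10 of 14 in WT were at least 2-fold lower and none higher. Of 13 chemokine and chemokine receptor genes tested in each genotype, 12 were at least 2-fold lower and none higher, with a median log2 ratio of -2.29 in TG and -2.65 in WT. The WT count includes Cxcr1, a receptor for CXC chemokines, which had no UMI in WT Neu cells and for which the floor allows only 1.17-fold. Cxcl2, a ligand of CXCR2, was lower but not low, at 2079 CPM in TG Neu cells and 12732 in TG Mono cells, and 2563 and 16092 in the WT cells, against 42.8 and 28.6 in B cells. Ccl6 stood at 219 CPM in TG Neu cells and 2936 in TG Mono cells, and 423 and 3637 in the WT cells, Ccrl2, an atypical receptor that binds chemerin, at 53.4 CPM in TG Neu cells and 1217 in TG Mono cells, and 261 and 1461 in the WT cells, and Cxcr4, which holds neutrophils in marrow, at 231 CPM in TG Neu cells and 624 in TG Mono cells, and 163 and 1106 in the WT cells.

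Receptors for antibody, complement and microbial products followed. Of 14 tested in each genotype, 7 in TG and 10 in WT were at least 2-fold lower and 1 higher. The WT count includes Tlr4, the receptor for lipopolysaccharide, with no UMI in WT Neu cells and a bound of only 1.35-fold. C5ar1, the receptor for C5a, stood at 575 CPM in TG Neu cells and 1265 in TG Mono cells, and 347 and 1097 in the WT cells, and Cd14, a co-receptor for lipopolysaccharide, at 234 CPM in TG Neu cells and 714 in TG Mono cells, and 119 and 426 in the WT cells. Fcer1g, the shared Fc receptor γ chain, was within 2-fold at 2385 CPM in TG Neu cells and 2051 in TG Mono cells, and 1694 and 1672 in the WT cells. Of growth factor receptors, 9 of 11 in TG and 7 of 10 in WT were at least 2-fold lower and none higher. The mouse gene Tgfbr2, for a receptor of TGF-β, had 6 UMIs in TG and 1 in WT Neu cells, or 17.8 and 10.9 CPM, against 218 and 231 in B cells. The transgene carries the human form, which was not measured here.

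Transcription factors of granulocytes differed among themselves. Cebpe, which drives secondary granule genes in the myelocyte, stood at 208 CPM (162 to 262) in TG Neu against 6.68 in TG Mono cells and at 97.7 CPM (44.7 to 186) against 7.64 in WT. Cebpb, a family member tied to emergency granulopoiesis, was lower, at 712 CPM in TG Neu cells and 2786 in TG Mono cells, and 423 and 2317 in the WT cells. The immediate early factors Junb and Fos were lower too, Junb at 1284 CPM in TG Neu cells and 6211 in TG Mono cells, and 1389.8 and 5819 in the WT cells and Fos at 1634 CPM in TG Neu cells and 5047 in TG Mono cells, and 2519 and 7958 in the WT cells. Of 18 factors tested in each genotype, 1 in TG and 2 in WT were at least 2-fold higher and 9 and 10 at least 2-fold lower. Cebpe was the one in TG and did not reach the count minimum in WT, with 9 UMIs in Neu and 4 in Mono cells. One of the 2 in WT was Irf8, which steers precursors to the monocyte and dendritic lineages, with all 27 of its WT Neu UMIs in the same 4 WT cells and 24 of them in 1 cell. Mcl1, which keeps neutrophils alive, stood at 994 CPM in TG Neu cells and 3572 in TG Mono cells, and 1238 and 3416 in the WT cells, and of the survival and death list 4 of 8 in TG and 5 of 7 in WT were at least 2-fold lower, with 0 and 1 higher. Bcl2a1b, a BCL-2 relative counted in WT, had no UMI in WT Neu cells and a bound of only 1.23-fold.

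Interferon-stimulated genes were mostly lower in Neu than in Mono cells. Of 34, 32 passed in TG and 29 in WT, and 28 and 22 of these were at least 2-fold lower than in Mono cells, with 0 and 1 higher and a median log2 ratio of -2.25 in TG and -1.70 in WT. The WT count includes Ifit3b and Usp18, with no UMI in WT Neu cells and bounds of only 1.58-fold and 1.23-fold. Oasl2 stood at 269.9 CPM in TG Neu cells and 1677 in TG Mono cells, and 65.1 and 665 in the WT cells, Rsad2 at 133 CPM in TG Neu cells and 552 in TG Mono cells, and 43.4 and 369 in the WT cells, and Gbp2, a guanylate-binding protein induced by IFN-γ, at 38.6 CPM in TG Neu cells and 758 in TG Mono cells, and 0 and 86.0 in the WT cells. In TG, Ifitm3, Slfn4, Psmb8 and Psmb9 were within 2-fold, with Ifitm3 at 2133 CPM in TG Neu cells and 1727 in TG Mono cells, and 847 and 791 in the WT cells. Of 17 glycolytic genes, 5 in TG and 4 in WT were at least 2-fold higher and 1 and 2 lower, beside 12.5% and 14.3% higher and 20.9% and 23.9% lower of all genes, and TMM scaling left 2 higher in WT. Pgam1 stood at 516 CPM in TG Neu cells and 179 in TG Mono cells, and 380.0 and 141 in the WT cells and Ldha, lactate dehydrogenase, at 504 CPM in TG Neu cells and 229 in TG Mono cells, and 478 and 170.0 in the WT cells, while the glucose transporter Slc2a1 stood at 17.8 CPM in TG Neu cells and 124 in TG Mono cells, and 0 and 129.9 in the WT cells. Of 4 MHC class II genes tested, 1 in TG (Cd74) and 0 in WT were at least 2-fold lower and none higher. In TG the count was 0 without Scrublet doublets, and also 0 with equal weight for each cell. Cd74 in TG turned to 0.35 on the log2 scale in the 2 TG cells left without 2 or more lymphocyte UMIs, and without the 4 WT cells with the most lymphocyte UMIs all 4 genes were lower in WT. Leaving out those 4 cells also gave 8 glycolytic genes higher in WT in place of 4.

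**Figure D4:**
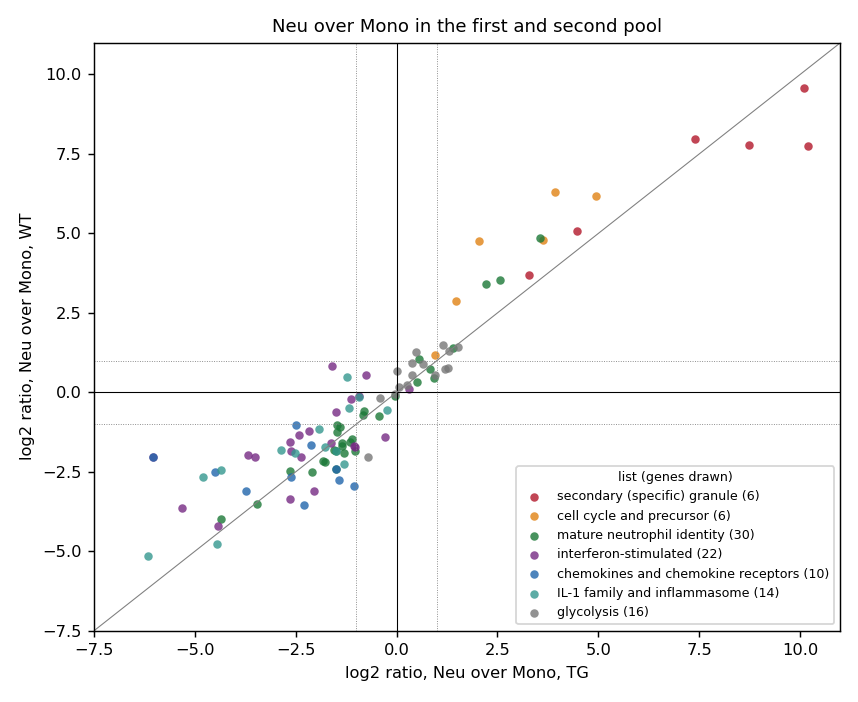
Log2 ratio of Neu over Mono cells in the first pool (TG, horizontal) and second pool (WT, vertical) for genes of 7 lists that passed the count minimum in both and had a UMI in every profile. Dotted lines mark a 2-fold difference and the grey line equal ratios, and a gene in more than one list is drawn for each. Secondary granule and cell cycle genes lie high in both pools, and the interferon, chemokine and IL-1 genes mostly lie low in both.

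Outside the lists, the genes whose intervals lay furthest above 0 included Fcnb, a ficolin of granulocyte precursors, with 109 UMIs in TG and 94 in WT Neu cells and none in Mono cells, at least 64.6-fold and 178-fold higher taking 3 UMIs over the Mono cells as the floor. Serpinb1a, an inhibitor of neutrophil elastase, stood at 1074 CPM in TG Neu cells and 21.7 in TG Mono cells, and 825 and 5.73 in the WT cells, and Itgb2l, a β2 integrin-like chain, at 558 CPM in TG Neu cells and 10.0 in TG Mono cells, and 228 and 3.82 in the WT cells. Of the classical monocyte markers 5 passed in each genotype, with 3 at least 2-fold higher and 2 at least 2-fold lower in Neu cells. The lower ones included Csf1r, with 25 UMIs in TG and 1 in WT Neu cells. The higher ones were Chil3 as above, Lyz2 and Ly6c2. Lyz2, lysozyme M, stood at 13775 CPM in TG Neu cells and 1868 in TG Mono cells, and 10424 and 1417 in the WT cells, and Ly6c2, better known from monocytes, at 2456 CPM in TG Neu cells and 436 in TG Mono cells, and 2508 and 296 in the WT cells. The 10 genes furthest below 0, listed genes included, held Il1b, Nlrp3, Fgl2 and Ifitm1 in both genotypes and Csf3r and Pim1 in WT only, among others. Fgl2, a fibrinogen-like protein, stood at 35.6 CPM in TG Neu cells and 1142 in TG Mono cells, and 32.6 and 1221 in the WT cells. Ifitm1, of the mature neutrophil list, stood at 202 CPM in TG Neu cells and 4131 in TG Mono cells, and 65.1 and 1037 in the WT cells. Pim1, a kinase induced by cytokines, stood at 433 CPM in TG Neu cells and 4673 in TG Mono cells, and 434 and 5164 in the WT cells. Cd274 (PD-L1) had no UMI in TG Neu cells against 317 CPM in TG Mono cells, at least 35.6-fold lower by the same floor, and 1 UMI in WT Neu cells.

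The Neu cells varied among themselves. The share of UMIs from secondary granule genes ran from 1.01% to 16.4% in TG and from 0.388% to 14.8% in WT, and S100a8 with S100a9 ran from 9.89% to 17.1% and from 5.12% to 15.8%. Cells with much of the granule genes had little of the IL-1 list, with a Spearman correlation of -0.70 over 54 TG cells and -0.65 over 17 WT cells. It is a description, since the cells of a genotype share a library, both measures share the total as denominator, and the granule share also went with the total (0.69 in TG and 0.47 in WT) while the IL-1 share went against it (-0.61 and -0.44). Even the Neu cell richest in the IL-1 list, at 0.750% in TG and 1.21% in WT, lay below the median Mono cell, at 2.19% and 2.50%.

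**Figure D5:**
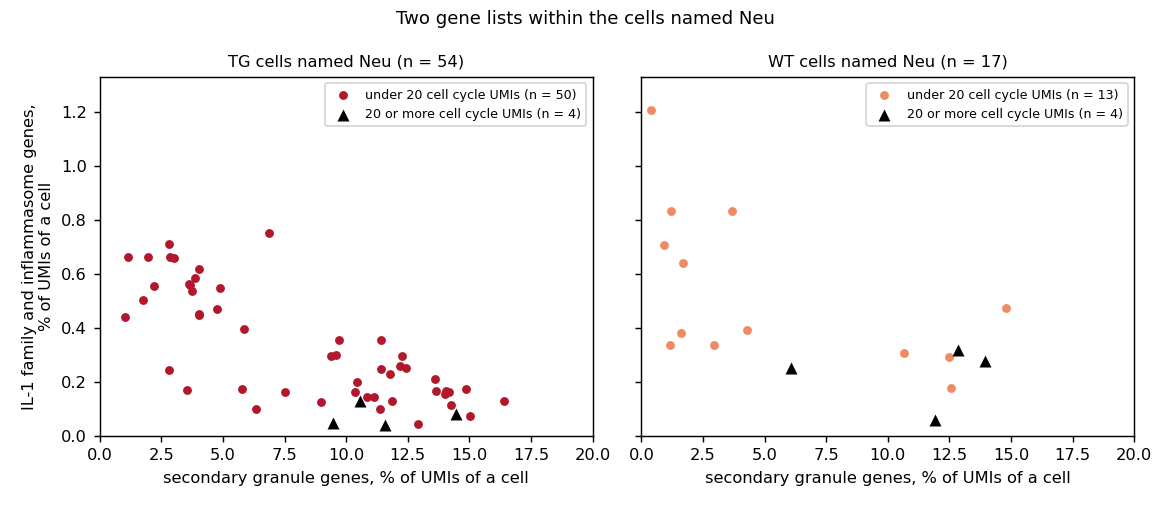
Each point is a cell named Neu, with the share of its UMIs from the 8 secondary granule genes on the horizontal axis and from the 17 genes of the IL-1 list on the vertical axis. Triangles are the 4 TG and 4 WT cells with at least 20 cell cycle UMIs, all at 6.07% or more of granule genes.

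Cell cycle genes came from few cells. Of the 9 genes of the cell cycle list, 8 of 9 tested in TG and 6 of 6 in WT were at least 2-fold higher in Neu than in Mono cells, but UMIs of Mki67, Top2a, Birc5, Pclaf, Rrm2, Cdk1 and Stmn1 summed to 65 to 88 in 4 TG cells and to 6 at most in the other 50, and to 20 to 75 in 4 WT cells and 1 at most in the other 13. The limit of 20 UMIs was set after these counts were seen. These 8 cells were among the deepest, at 12144 to 13937 UMIs in TG and 6956 to 13126 in WT, and Scrublet called none of them a doublet. The deepest of the 4 WT cells, with 51 T, B and NK lineage UMIs, was the cell that held all Elane and Prtn3 UMIs, and it held 36 of the 94 WT UMIs of Fcnb. They also held most of Fcnb, 65 of 109 UMIs in TG and 94 of 94 in WT, and 10 of the 12 TG UMIs of Prtn3. Secondary granule genes differed among themselves there. Camp stood at 27217 CPM in the 4 TG cells and 13614 in the other TG cells, and Chil3 at 9615 and 3306. Ltf was nearly equal, at 12814 and 12810.1 in TG and 7233 and 7486 in WT. Ngp stood at 45093 and 39112 in TG and 49932 and 29909 in WT. Genes of later stages were low in the 8 cells. Retnlg stood at 137 CPM in the 4 TG cells against 18031 in the others and at 80.4 against 35935 in WT, Mmp8 at 177 against 5119 in TG with none of its 286 WT UMIs, Cxcr2 at 98.1 against 1118 and 26.8 against 949, and Ly6g at 824 against 1688 and 134 against 1570.3. None of the 8 cells had a UMI of Il1b. Without cells with at least 20 such UMIs, 496 of 4411 genes in TG and 402 of 3543 in WT were at least 2-fold higher in Neu than in Mono cells. Of the same genes, 941 in TG and 800 in WT were at least 2-fold lower.

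TG and WT Neu cells differed by less than 2-fold in every secondary and tertiary granule gene tested when profiles were scaled by their totals, but not under TMM scaling. Of 2818 genes with at least 20 UMIs, 239 (8.48%) were at least 2-fold higher in TG and 313 (11.1%) at least 2-fold lower. Under TMM scaling the same genes gave 444 and 119, so that 78.9% in place of 43.3% of the called genes were higher in TG, and the median over all genes moved by 0.37 on the log2 scale. The direction of a difference under about that size therefore depends on the scaling. By the totals and with all cells, all 8 secondary granule genes were within 2-fold, from -0.46 for Chil3 to 0.91 for Orm1 on the log2 scale, as were the 9 tertiary granule genes tested and the 7 oxidase genes. With log2 ratios in parentheses, TMM scaling put Ltf (1.16), Olfm4 (1.09), Orm1 (1.20), Fpr2 (1.06) and the oxidase subunit Ncf4 (1.22) past 2-fold higher in TG, as it did Cxcr2 (1.10) and Ly6g (1.02). Without cells with 2 or more lymphocyte UMIs, which left 2 TG and 6 WT cells, 5 of 6 secondary granule genes tested were at least 2-fold lower in TG. Cxcr2 differed by a log2 ratio of 0.74 (0.32 to 1.19) by the totals, Csf3r by 0.00 (-0.66 to 0.72) and Ly6g by 0.66 (0.33 to 0.99).

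Of 34 interferon-stimulated genes, 15 reached the count minimum. Of these 15, 7 were at least 2-fold higher in TG, against 8.48% of all genes, and none lower. Their median log2 ratio was 0.89 where that of all genes was -0.09. The TG profile held 337141 UMIs and the WT profile 92097, so a gene can pass mainly through its TG UMIs. Oasl2 (91 and 6 UMIs) and Rsad2 (45 and 4) did so, and the count describes only the genes that passed. Without cells with at least 20 cell cycle UMIs 3 of the 15 were higher and 1 lower, and without the 4 WT cells with the most lymphocyte UMIs 7 were higher. Ifitm3, which blocks virus entry, stood at 2133 CPM (1979.6 to 2294) in TG and 847 CPM (669 to 1057) in WT, and was found in 54 of 54 and 15 of 17 cells. Those 4 WT cells held 6 of its 78 WT UMIs, and the other 13 stood at 1158 CPM (906 to 1459), so that without the 4 the log2 ratio fell from 1.33 to 0.87, within 2-fold, as it did without the cells with at least 20 cell cycle UMIs, at 0.83. Oasl2 stood at 269.9 CPM (217 to 331) and 65.1 CPM (23.9 to 142), the latter from 6 UMIs in 3 cells, and Slfn4, a Schlafen gene of myeloid cells, at 1744 CPM (1606 to 1891) and 651 CPM (497 to 839). Mono cells of TG were higher than those of WT by more than 2-fold in 2 of these, with Ifitm3 at 1727 and 791 CPM and Oasl2 at 1677 and 665, while Slfn4 stood at 2135 and 1702. Of 7 eicosanoid genes tested, 4 were at least 2-fold higher in TG and none lower, and 2 of these rested on few WT UMIs, with Ptgs2 at 26 and 2 UMIs and Ptafr at 27 and 1. Without the 4 WT cells 2 of the 7 were higher. S100a6, a calcium-binding protein, stood at 4028 CPM (3817 to 4248) in TG and 1737 CPM (1479 to 2028) in WT Neu cells, a log2 ratio of 1.21 that fell to 0.68, within 2-fold, without the cells with at least 20 cell cycle UMIs. Immunoglobulin transcripts were higher in TG Neu cells too, with Igha at 341 and 43.4 CPM and Igkc at 712 and 261. In TG against WT Mono cells Igha stood at 1417 and 107 CPM and in B cells at 271 and 65.1. The TG Mono cells include 1 with 2318 T, B and NK lineage UMIs, where their median was 5. Its part in the Igha level of Mono cells was not tested. The part of free RNA in the immunoglobulin transcripts was not tested either.

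Some of the genes lower in TG than in WT Neu cells rested on few WT cells. Of the 9 cell cycle genes, 6 were at least 2-fold lower in TG, or 3 under TMM scaling and 2 without the 4 WT cells with the most lymphocyte UMIs. Most of their UMIs lay in 4 of 54 cells in TG and 4 of 17 in WT. Irf8 had 7 UMIs in TG and 27 in WT, 24 of the latter in 1 cell. Elane and Prtn3 came from 1 WT cell as above, which also held 20 of the 24 WT Igkc UMIs. Il1b was -1.19 on the log2 scale, with 18 of its 25 WT UMIs in 1 cell that Scrublet called a doublet. The 4 WT Neu cells with the most T, B and NK lineage UMIs, 8 to 61 against 4 at most in the other 13, also had the lowest S100a8 and S100a9 shares, 5.12% to 7.81% against 10.9% to 15.8%, and held 24 of the 25 Il1b, 27 of the 27 Irf8 and 20 of the 20 Elane UMIs. Without them 271 of 2599 genes were at least 2-fold higher in TG and 202 lower, and Il1b turned to 2.32 on the log2 scale. These cells were chosen after the counts were seen, and whether they are mixtures was not tested.

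The antibody readout gave no usable Ly6G signal. The Ly6G antibody had 16 counts over all 11929 cells, fewest of the 49 antibodies, and its median was 0 in Neu and Mono cells of both genotypes, so it gave no measure of Ly6G protein. CD44, an adhesion receptor, took 61.8% of the antibody counts of TG Neu and 55.9% of WT Neu cells, and 56.2% and 44.2% in Mono cells. On the natural-log centred scale of the deposited values, CD16/CD32, the low-affinity Fc receptors, had a median (and quartiles) of 2.88 (2.60 to 3.12) in TG Neu and 2.42 (2.06 to 2.64) in TG Mono cells, and 2.44 (1.97 to 2.70) and 1.88 (1.66 to 2.15) in WT. CD49d, an integrin chain lost as neutrophils mature, stood at 2.08 (1.73 to 2.47) and 1.61 (1.32 to 2.02) in TG and 1.90 (1.30 to 2.14) and 1.33 (1.12 to 1.60) in WT. CD172a, the receptor for CD47, ran the other way, at 2.13 (1.89 to 2.32) and 2.51 (2.22 to 2.70) in TG and 2.01 (1.62 to 2.28) and 2.47 (2.15 to 2.67) in WT. CD184, the protein of Cxcr4, was not lower in Neu cells as its RNA was. It stood at 0.52 (0.34 to 0.67) and 0.30 (0.15 to 0.45) in TG and 0.36 (0.21 to 0.57) and 0.32 (0.17 to 0.47) in WT. B cells stood at 0.15 in TG and 0.19 in WT. CD24, whose gene Cd24a is in the mature neutrophil list, stood at 1.75 (1.54 to 1.98) in TG Neu and 1.88 (1.59 to 2.10) in TG Mono cells. In WT, CD24 stood at 1.64 (1.41 to 1.79) and 1.96 (1.74 to 2.25). For CD24, B cells stood at 0.54 in TG and 1.02 in WT.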

How the data were processed

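Libraries of 2 mixed-genotype pools were processed by the authors with the BD Rhapsody pipeline (STAR, mm10). The deposited counts are UMI counts per cell and gene or antibody, the deposited natural log values are centred antibody ratios, and the deposited percent values are mitochondrial shares. Genotype, cell type and cluster names came from the authors' metadata (Seurat, CCA joining). Genotypes had 1 library each, so counts were summed over cells of a type and genotype and put on a CPM scale, with exact intervals of the Poisson distribution. Ratios between profiles have conditional binomial intervals, cell shares Clopper-Pearson intervals and their difference a Newcombe interval, all at 95%. A gene was compared with at least 20 UMIs over both profiles and called at 2-fold, with 0.5 UMIs added for calling. Promoter letters came from RefSeq (GRCm38.p6). Named genes were the markers, list members and the 10 genes whose interval lay furthest from 0 at each end. Members and the 17 role and 15 marker lists were chosen with earlier results of these data known. Doublets were called by Scrublet (scanpy 1.11.5) and left in, 0.818% of TG and 3.25% of WT cells. Of cell numbers in the 2 library files, 267 occurred in both, none among Neu cells. Ratios and intervals were tested on simulated counts drawn from the Poisson distribution that the intervals assume. The clumping of UMIs in single cells was not simulated, so that test does not cover it. Alternatives were TMM (edgeR 4.0.16), other totals, thinning to 500 UMIs, other minimums, the filtered table and left-out cells. The authors' normalized RNA table was not used, and a few listed genes are not reported here.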

Additional observations from a re-analysis of the deposited data

Results flagged for a closer look

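Cells with no genotype name were outside every comparison, and some had a share of S100a8 and S100a9 as high as named Neu cells. The limit was the lower quartile of the S100a8 and S100a9 share among the named Neu cells of a library, 11.6% in the first pool and 10.9% in the second. In the first pool 8 of 5379 such cells reached it, 0.149% (0.0642 to 0.293), and in the second 253 of 16829, 1.50% (1.32 to 1.70). The limit passes about 3 in 4 named Neu cells by its construction. It was reached by 1 of 204 TG and 0 of 258 WT Mono cells, and none of the 1068 TG and 1494 WT B cells named maturate b. The 253 cells had a median of 4301 UMIs and of 9.72% secondary granule UMIs (0.118% to 18.0%). Their summed profile, that of cells chosen by S100a8 and S100a9, held Ltf at 10822 CPM, Ngp at 47353, Ly6g at 1619, Csf3r at 301 and Il1b at 337 CPM, against 7384, 38025, 988, 261 and 271 CPM in the named WT Neu cells. Of the 25 Il1b UMIs of the named WT Neu cells, 24 lay in 2 cells that are among the 4 with the most lymphocyte UMIs, and the 13 cells outside those 4 stood at 16.1 CPM (0.407 to 89.6). The 8 cells of the first pool, with a median of 9.04% secondary granule UMIs (0.692% to 12.3%), held Ltf at 13031 CPM, Ngp at 36394, Ly6g at 469.6, Csf3r at 399 and Il1b at 1033, against 12811, 40016, 1557, 261 and 119 CPM in the named TG Neu cells, so that Ly6g was lower and Il1b higher than in those. Whether the 8 cells came from IFN-γ ARE-Del-/- or TG mice, and the 253 cells from P40-/-IL-2Ra-/- or WT mice, was not tested. A TG or WT cell can lack a name because its tag was not read or because the authors' filtering left it out.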

How the results depend on the processing

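Genes at least 2-fold higher and lower in Neu than in Mono cells are given here with the number tested. After thinning to 500 UMIs they were 91 and 349 of 1070 in TG and 156 and 342 of 1156 in WT. Without a minimum count they were 2362 and 2691 of 11980 in TG and 2984 and 1622 of 11397 in WT. With at least 50 UMIs they were 260 and 586 of 2543 in TG and 172 and 530 of 1919 in WT. Without cells with 2 or more lymphocyte UMIs, 36 were higher and 96 lower of 288 in TG, and 298 of 2081 were higher in WT. TMM scaling gave 352 of 3771 higher in WT. Between TG and WT Neu cells, genes higher and lower in TG were 444 and 119 of 2818 with TMM scaling and 27 and 16 of 230 after thinning. They were 949 and 2934 of 10193 without a minimum and 54 and 69 of 1205 with at least 50 UMIs. Without cells with 2 or more lymphocyte UMIs they were 46 and 40 of 236, and without the 4 WT cells 202 of 2599 were lower. Thinning, the minimum and left-out cells change how many genes are tested, and the cause was otherwise not tested. The share difference was 9.59 points with myeloid cells as denominator. Without Neu cells with 2 or more lymphocyte UMIs it came to -0.0390 points (-0.141 to 0.0844), below 0 with an interval that includes 0. That limit left 2 TG and 6 WT cells. Mono cells also differed in such UMIs, with medians of 5 in TG and 1 in WT, and genotype and library cannot be told apart. Of 1976 values for 255 log2 ratios of named genes, 1583 stayed within counting error, 383 moved and 10 turned sign. The latter were, without cells with 2 or more lymphocyte UMIs for Slpi (Neu over Mono in TG) 0.44, Cxcr2 (Neu over Mono in TG) 0.31, Cd74 (Neu over Mono in TG) 0.35, Itgal (Neu over Mono in TG) 0.13, and without the cells with at least 20 cell cycle UMIs for Stmn1 (Neu over Mono in TG) -0.66, Fcnb (TG Neu over WT Neu) 4.09, and after thinning for Nr4a1 (Neu over Mono in WT) 0.16, and without doublets for Il1b (TG Neu over WT Neu) 0.49, and without the 4 WT cells for Il1b (TG Neu over WT Neu) 2.32, Cdk1 (TG Neu over WT Neu) 0.45. The Fcnb value rests on the 0.5 UMIs added to each side, with 44 UMIs in the other 50 TG cells and 0 in the other 13 WT cells. Its size is therefore not a measured ratio. Leaving out the cells with many cell cycle UMIs, or the 4 WT cells, was chosen after seeing the data. No paired analysis was possible because each genotype had 1 library. The depth of the 17 WT Neu cells limits genes under 32.6 CPM.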
